A study of Mus musculus with 6 samples.

Results

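Cytosolic ribosomal proteins are the protein building blocks of the ribosome, and their mRNAs were described in bone marrow libraries labelled megakaryocytes (MKs), from mice with floxed Becn1. Members were taken by gene symbol, as rows named Rpl or Rps followed by a number with an optional suffix, Rplp0 to Rplp2 or Rpsa. The rule uses no measured value and found 83 of the 16579 genes in the table, 31 of the small (40S) and 52 of the large (60S) subunit. Of these, 76 are core members and 7 are alternative copies whose name extends that of a core member (Rpl22l1, Rpl39l, Rpl36al, Rps27l, Rpl3l, Rpl32l and Rpl7l1). The pattern leaves out genes for ribosomal or ribosome-bound proteins with other names, of which Fau, Rps3a1 and Rack1 are given beside the members.

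The study deleted Becn1, which encodes the autophagy protein Beclin 1, in the MK lineage. Total RNA was sequenced from cells sorted as MKs by flow cytometry from the bone marrow of adult mice, in 3 libraries labelled Becn1f/f and 3 labelled Becn1f/f;Pf4-iCre. Both groups carry the floxed Becn1 alleles, and the second also carries Cre recombinase driven by Pf4 (platelet factor 4) regulatory sequence, which is active in the megakaryocytic lineage. The question for these genes was whether the mRNAs of the ribosome differed between the genotypes. The labels do not tie libraries to individual animals, so p-values measure the spread between these libraries, which may in part be technical.

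Each cytosolic ribosome holds a single copy of nearly every ribosomal protein, so cells make these proteins in step with each other. The mRNAs of most of them begin with a terminal oligopyrimidine (TOP) tract, a cytosine followed by a run of pyrimidines, through which the kinase complex mTORC1 and the RNA-binding protein LARP1 control their translation and stability. Autophagy can degrade ribosomes, a process called ribophagy, and platelets inherit ribosomes and mRNA from MKs.

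Library totals lay between 16467560 and 17156728 estimated counts, and replicates of a genotype correlated at 0.98 to 0.99 on the log2 scale. The targeted gene gives a partial check of the labels. Becn1 had estimated counts of 2034, 1892 and 2103 in Becn1f/f libraries 1, 2 and 3. Its estimated counts were 1775, 1731 and 1849 in libraries 1, 2 and 3 labelled Becn1f/f;Pf4-iCre. After normalization these were 128, 109 and 119 CPM (counts scaled to library size) and 106, 104 and 110 CPM, so the groups overlapped. The log2 fold change was -0.15 (SE 0.12, adjusted p = 0.94 by the quasi-likelihood test of edgeR, corrected over all genes by Benjamini-Hochberg). Becn1 counts therefore do not bear out the labels, but counts over a whole gene cannot settle whether its floxed part was lost. The study reported reduced Becn1 mRNA in CD41+ marrow cells (MKs and platelets) by RT-qPCR. It found no detectable Becn1 protein in platelets of Becn1f/f;Pf4-iCre mice. The groups are called by their labels throughout. The MK label was checked against markers. Summed over 18 MK and platelet markers, the level was 579 to 836 CPM in Becn1f/f and 602 to 688 CPM in the libraries labelled Becn1f/f;Pf4-iCre, which is 0.059% to 0.086% of counts, and no marker was at 0 in every library. Summed over 16 neutrophil markers it was 12583 to 17673 CPM and 9766 to 13107 CPM. MK markers thus summed to far less than neutrophil markers and do not bear out the MK label. The ribosomal protein mRNAs below are those of the whole sorted population, in which fewer cells of a type and less RNA per cell cannot be told apart.

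The start of the mRNA is where the TOP tract lies, and 63 of the 83 members matched an entry in the RefSeq promoter table (GRCm38.p6, 300 bases with 250 before the start). A run of at least 7 pyrimidines that begins with C within 10 bases of the annotated start was present in 31 of the 63 members (49.2%), against 14.1% of the 27025 genes with a promoter entry. Among core members it was present in 27 of 56, and among the alternative copies in 4 of 7. The window covers both sides of the start, so a counted run can end before it and lie outside the annotated mRNA. This was so for Rps27l and Rpl39l among the alternative copies, and for Rpl10a and Rpl19 among the core. The sequences below, from 20 bases before the start to 30 bases from it, were chosen to show a strong tract in abundant members, the tract of Rps6, and 3 core members beside their alternative copies. Capitals mark the longest run that begins with C within 10 bases of the start, where it has 5 or more pyrimidines. Other runs are left in lower case. A gene with several promoter entries was counted if any entry matched, and the entry with the longest run is shown. This applies to Rpl22 and Rps27l, whose other entries have longest runs of 3 and 4. The marked runs of Rpl22 and Rps27l end before the start.
Rpl28 (60S, chr7:4792945-4792994, plus strand): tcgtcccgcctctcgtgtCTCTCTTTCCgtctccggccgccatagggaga
Rps9 (40S, chr7:3704021-3704070, plus strand): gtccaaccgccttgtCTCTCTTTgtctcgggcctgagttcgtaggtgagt
Rps6 (40S, chr4:86857338-86857387, minus strand): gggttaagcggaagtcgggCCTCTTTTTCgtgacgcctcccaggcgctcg
Rps27 (40S, chr3:90213619-90213668, minus strand): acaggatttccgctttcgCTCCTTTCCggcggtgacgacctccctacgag
Rps27l (copy of Rps27, chr9:66946066-66946115, plus strand): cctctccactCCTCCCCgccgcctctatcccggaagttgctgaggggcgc
Rpl36a (60S, chrX:134585634-134585683, plus strand): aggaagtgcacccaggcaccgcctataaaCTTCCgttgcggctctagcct
Rpl36al (copy of Rpl36a, chr12:69184038-69184087, minus strand): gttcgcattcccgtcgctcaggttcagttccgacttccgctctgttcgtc
Rpl22 (60S, chr4:152324416-152324465, plus strand): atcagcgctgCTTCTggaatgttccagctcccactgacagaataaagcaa
Rpl22l1 (copy of Rpl22, chr3:28805488-28805537, plus strand): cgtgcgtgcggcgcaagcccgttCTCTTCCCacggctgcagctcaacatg

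The marked runs of Rpl28, Rps6 and Rps27 are 10, 10 and 9 pyrimidines long, while the longest run of Rpl36al that begins with C within 10 bases of the start is 3. The letters CTCTTTC, searched on the sense strand of the 300 bases, were in 13 of the 63 members (20.6%) and in 1244 of the 27025 genes with an entry, and these letters overlap the pyrimidine tract where that lies at the start. CCGGAAG, the core of sites for ETS factors, was searched on both strands and was in 25 members (39.7%) and in 9.93% of all genes. GGGCGG on both strands was in 38 members (60.3%) and 38.2% of all genes. Neither was particular to the members. In the related gene lists searched, which are described further on, GGGCGG was in 41.7% (other TOP mRNAs) to 73.3% (translation initiation) of genes with an entry. CCGGAAG was in 14.3% (nucleolar stress and p53) to 58.3% (RNA polymerase I) of them. TATAAA on the sense strand was in 7 members (11.1%) and 9.77% of all genes. These are matches of letters and say nothing of binding in these cells.

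Ribosomal protein mRNAs were among the most abundant in the libraries when scaled for transcript length. By FPKM (the authors' value, in which fragments are scaled for transcript length and library size), 47 of the 100 highest genes and 8 of the 20 highest were members, and the median mean FPKM over the 76 core members was 1234. The level per length was over 1000 FPKM in 45 core members, 100 to 1000 in 27 and under 100 in 4. The 40S core median was 1327 FPKM and the 60S core median 1134 FPKM. The length implied by count and FPKM was a median of 0.48 of the reference length in core members, against 0.87 over all genes tested. FPKM thus raises members more than most genes. By counts, the 83 members together held 2.77% to 4.22% of a library.

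Rpl23a, a 60S protein at the exit of the peptide tunnel, had the highest mean at 2426 FPKM. Its FPKM was 2563, 2750 and 1620 in Becn1f/f libraries 1 to 3 and 2640, 2185 and 2795 in libraries 1 to 3 labelled Becn1f/f;Pf4-iCre. Becn1f/f library 3 was the lowest and the groups overlapped. Rpl28 followed at a mean of 2259 FPKM, then the 40S members Rps12 at 2243, Rps9 at 2126 and Rps27 at 2093. The order is not resolved between neighbours, since the ranges over 6 libraries overlapped in 79 of the 82 neighbouring pairs.

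The 4 core members under 100 FPKM were Rps20 (94.2 FPKM), Rpl22 (78.4 FPKM), Rps15a (48.5 FPKM) and Rps6 (32.2 FPKM). For 3 of them the length behind the FPKM is long. The length implied by count and FPKM was 4816 bases for Rps15a, 3126 for Rps20 and 1883 for Rpl22, whereas it was under 1000 for 65 of the 76 core members. Their counts were not low, at 2858 to 4951 for Rps15a and 3381 to 6124 for Rps20. Rps15a and Rps20 were picked out after their values were seen, as were the other members named here outside the rule given with the methods.

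Rps6, the 40S protein phosphorylated by S6 kinases downstream of mTORC1, was low in the counts themselves. Its estimated counts were 652, 568 and 498 in Becn1f/f libraries 1 to 3 and 478, 563 and 739 in libraries 1 to 3 labelled Becn1f/f;Pf4-iCre. The groups overlapped, with the highest and the lowest value both in the labelled deletion group. At a mean of 34.7 CPM it was the lowest core member, against a core median of 387 CPM, and the next lowest count in any core member was 792. Its estimated counts were not whole numbers in any of the 6 libraries, which was so for 7 of the 83 members, and the part of read assignment in its low value was not tested.

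At the other end of the length range the implied length fell far below the annotated one. It was 43.4 bases for Rpl38, whose reference transcript has 457, and 57.5 for Rps27, whose reference transcript has 345, and the median difference over core members was 367 bases. FPKM therefore ranks the shortest members higher than counts do, and the 2 orders had a Spearman correlation of 0.21 over the 76 core members, given as a description. By mean CPM, which is not scaled for length, the highest were Rplp0 (1606 CPM), the base of the ribosomal stalk, Rpl4 (1437), Rpsa (1343), Rpl3 (1329) and Rps2 (1278).

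**Figure D1:**
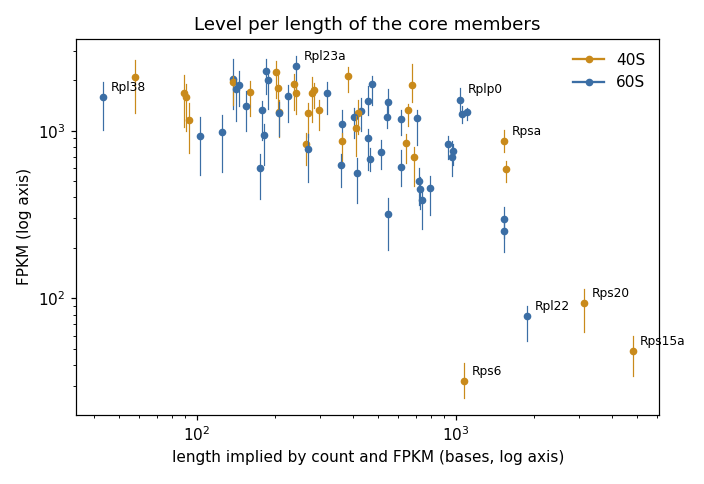
Level per length of 75 of the 76 core members (FPKM, log axis) against the length implied by count and FPKM (bases, log axis). Points are means over 6 libraries, lines run from the lowest to the highest library, and colours mark 40S and 60S members. Rps6 lies at 32.2 FPKM, below members of like length such as Rplp0, while Rps20, Rpl22 and Rps15a combine low FPKM with long implied lengths.

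No ribosomal protein mRNA differed between the genotypes by the tests used. Of the 83 members, 81 passed the expression filter, and Rpl3l (counts of 3 to 10) and Rpl39l (0 to 6) did not. Among the 81, edgeR's quasi-likelihood test found 0 at an unadjusted P under 0.05, where 6.31% of the 12256 genes tested passed, and DESeq2 and limma-voom also found 0. There were 0 past the study's thresholds for differential expression (a fold change of 1.5 with that P, 2.30% of all genes) and 0 with an adjusted p under 0.05 (0.0408% of all genes). In 0 members did the 2 groups of 3 libraries fail to overlap, against 10.6% of all genes.

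Fold changes were small and mostly above 0. The log2 fold change of the libraries labelled Becn1f/f;Pf4-iCre over Becn1f/f ran from -0.21 for Rps2 to 0.29 for Rps27, with SEs of 0.13 to 0.29. It was positive in 69 members and negative in 12, with 45.5% of all genes positive. The median was 0.08 over the members (0.09 for 40S, 0.06 for 60S) and -0.02 over all genes tested. The 95% confidence interval lay within a 1.5-fold change either way in 63 of the 81 members, against 7459 of the 12256 genes tested. Over all 81 members the lowest bound was -0.62 and the highest 0.79. The direction rested on single libraries. Without Becn1f/f library 3, 79 of the 81 were negative and the median was -0.10, and without library 1 labelled Becn1f/f;Pf4-iCre 54 were negative, while without Becn1f/f library 2 there were 2. Without libraries 2 and 3 labelled Becn1f/f;Pf4-iCre, each left out alone, 3 and 20 were negative.

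**Figure D2:**
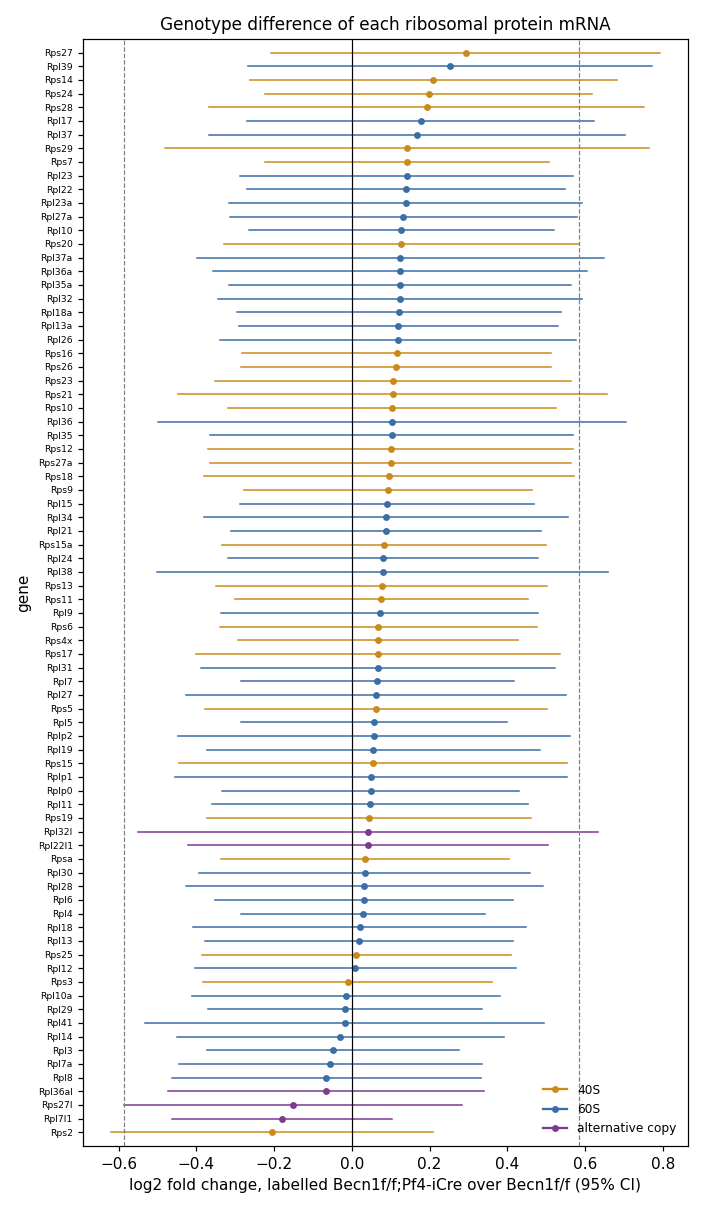
Log2 fold change of 80 of the 81 members tested (libraries labelled Becn1f/f;Pf4-iCre over Becn1f/f), with points for the estimate and lines for its 95% confidence interval from edgeR. Dashed lines mark a 1.5-fold change; every interval crosses 0, and the estimates run from -0.21 to 0.29.

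Rps27, a zinc-finger protein of the 40S subunit, had the most positive value. It was at 122, 138 and 74.3 CPM in Becn1f/f libraries 1 to 3 and at 164, 99.7 and 145 CPM in libraries 1 to 3 labelled Becn1f/f;Pf4-iCre. The groups overlapped, with Becn1f/f library 3 the lowest of all. Its log2 fold change was 0.29 (SE 0.23, edgeR adjusted p = 0.92). With each library's trend with GC content and transcript length removed it was 0.28 at an unadjusted P of 0.026, the 1 member past that threshold in a fit where 8.12% of all genes passed it. The other 4 most positive were Rpl39 (0.25), Rps14 (0.21), Rps24 (0.20) and Rps28 (0.19).

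Rps2, a 40S protein near the mRNA entry site, had the most negative value. It was at 1302, 1714 and 1093 CPM in Becn1f/f libraries 1 to 3 and at 1399, 989 and 1174 CPM in libraries 1 to 3 labelled Becn1f/f;Pf4-iCre. The groups overlapped, with Becn1f/f library 2 the highest, and its log2 fold change was -0.21 (SE 0.19, adjusted p = 0.95). The other most negative were Rpl7l1 (-0.18), Rps27l (-0.15), Rpl36al (-0.07) and Rpl8 (-0.07). Rpl7l1, a relative of Rpl7 known as a factor of large subunit assembly, had the smallest unadjusted P of any member, 0.19.

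Members with known roles beyond their place in the ribosome did not pass the test either. Rpl5 and Rpl11, which with 5S RNA form the particle that binds Mdm2 when ribosome assembly fails, had log2 fold changes of 0.06 (SE 0.16) and 0.05 (SE 0.19). Rps19, the gene most often mutated in Diamond-Blackfan anaemia, was at 431, 489 and 300 CPM in Becn1f/f libraries 1 to 3 and at 489, 345 and 425 CPM in libraries 1 to 3 labelled Becn1f/f;Pf4-iCre. The groups covered nearly the same range, and the log2 fold change was 0.04 (SE 0.19, edgeR adjusted p = 0.99). Rps14, whose loss marks a myelodysplastic syndrome with altered MKs, had the third most positive value of all members, 0.21 (SE 0.22, edgeR adjusted p = 0.96). The stalk proteins Rplp0, Rplp1 and Rplp2, which recruit elongation factors, had values of 0.05, 0.05 and 0.06. Rpsa (0.03), Rpl10 (0.13), Rpl13a (0.12), Rpl38 (0.08) and Rps27a (0.10), which is made as a fusion with ubiquitin, had smaller values than Rps14.

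Libraries of 1 genotype differed more than the genotype means did, and most members went up and down together. The share of all counts taken by the 83 members was 3.60%, 4.22% and 2.77% in Becn1f/f libraries 1 to 3 and 4.09%, 3.09% and 3.69% in libraries 1 to 3 labelled Becn1f/f;Pf4-iCre. Becn1f/f library 3 and library 2 labelled Becn1f/f;Pf4-iCre were lowest, 1 in each group, and the groups overlapped. The means were 3.53% ± 0.72 and 3.62% ± 0.50 (SD, n = 3 each), and the highest library held 1.52 times the share of the lowest. By summed FPKM the share was between 12.4% and 16.97% in Becn1f/f and between 14.5% and 17.3% in the libraries labelled Becn1f/f;Pf4-iCre, with the same lowest library.

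The 2 subunits kept their proportion. The ratio of 40S to 60S counts stayed between 0.611 and 0.633, a range of 1.04 times, while the 40S share alone ran from 1.05% to 1.63% and the 60S share from 1.72% to 2.58%. The mean ratio was 0.621 ± 0.010 in Becn1f/f and 0.623 ± 0.011 in the libraries labelled Becn1f/f;Pf4-iCre (SD, n = 3 each).

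**Figure D3:**
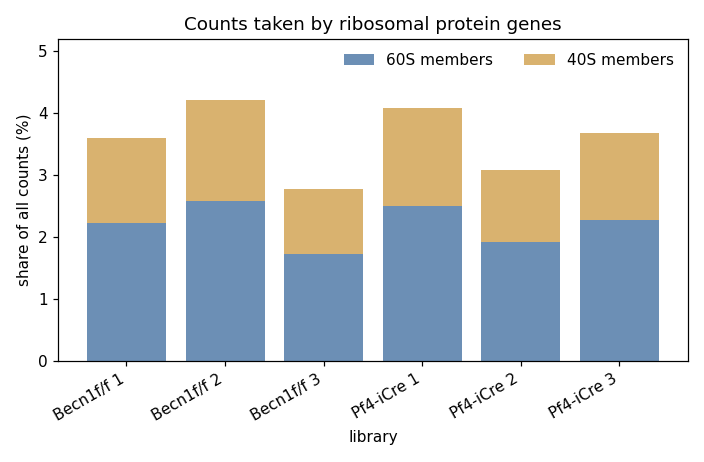
Share of all estimated counts (%) taken by 60S members (blue) and 40S members (tan) in each of the 6 libraries, where Pf4-iCre stands for the libraries labelled Becn1f/f;Pf4-iCre. The stacked total runs from 2.77% in Becn1f/f library 3 to 4.22% in Becn1f/f library 2, and both subunits go up and down together.

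Gene by gene the order of the libraries was largely shared. Within the Becn1f/f group, library 2 was above library 1 and library 1 above library 3, and within the other group library 1 was above library 3 and library 3 above library 2, in 64 of the 81 members tested, against 5.64% of all genes. Becn1f/f library 3 was the lowest of all 6 in 76 of 81, against 17.5% of all genes. This order was read from the members themselves, so these counts describe it and test nothing, and genes of 1 library are not independent. It was shared by 63 of the 76 core members and by 1 of the 5 alternative copies tested, Rpl36al. Of the genes outside the symbol pattern, Fau and Rack1 followed it and Rps3a1 did not.

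The size of the swing differed between members. The median within-genotype SD on the log2 scale was 0.32 for the members and 0.21 for all genes, and the median range over the 6 libraries was 0.79 and 0.56. Rpl36 had the widest range of a core member, at 94.7, 135 and 55.8 CPM in Becn1f/f libraries 1 to 3 and 133, 76.4 and 97.8 CPM in libraries 1 to 3 labelled Becn1f/f;Pf4-iCre, which is 1.27 on the log2 scale. Rps29 (1.25), Rps28 (1.20) and Rpl37 (1.16) followed. Rpl4 had the narrowest, at 1524, 1496 and 1250 CPM and 1516, 1336 and 1502 CPM, a range of 0.29, and Rpl3 followed with 0.36. Even in Rpl4 the lowest library was Becn1f/f library 3.

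Transcript length moved with the swing. Over the 76 core members the range had a Spearman correlation of -0.56 with reference transcript length, given as a description over genes that share their libraries. Its median was 0.91 in the shortest 26 members (345 to 733 bases), 0.75 in the middle 25 and 0.73 in the longest 25. Members are short, with a median of 878 bases against 3009 over all genes tested. The libraries also differed in composition. Across 11953 genes, the deviation of a gene in a library had a rank correlation with GC content of -0.18, 0.35 and 0.29 in Becn1f/f libraries 1 to 3 and of 0.44, -0.46 and -0.51 in libraries 1 to 3 labelled Becn1f/f;Pf4-iCre, and with length of -0.03, -0.45, 0.19, -0.15, 0.36 and 0.02.

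The mean log2 deviation of the members from their own means was 0.08, 0.25 and -0.46 in Becn1f/f libraries 1 to 3 and 0.26, -0.23 and 0.09 in libraries 1 to 3 labelled Becn1f/f;Pf4-iCre, a range of 0.72. With the trends of GC content and length removed from each library it was 0.03, 0.07, -0.28, 0.18, -0.06 and 0.05, a range of 0.47. Becn1f/f library 3 was still lowest, and the shared order then held in 38 of 81 members and in 4.29% of all genes. Whether RNA quality or library preparation had a part in the remaining range was not tested.

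**Figure D4:**
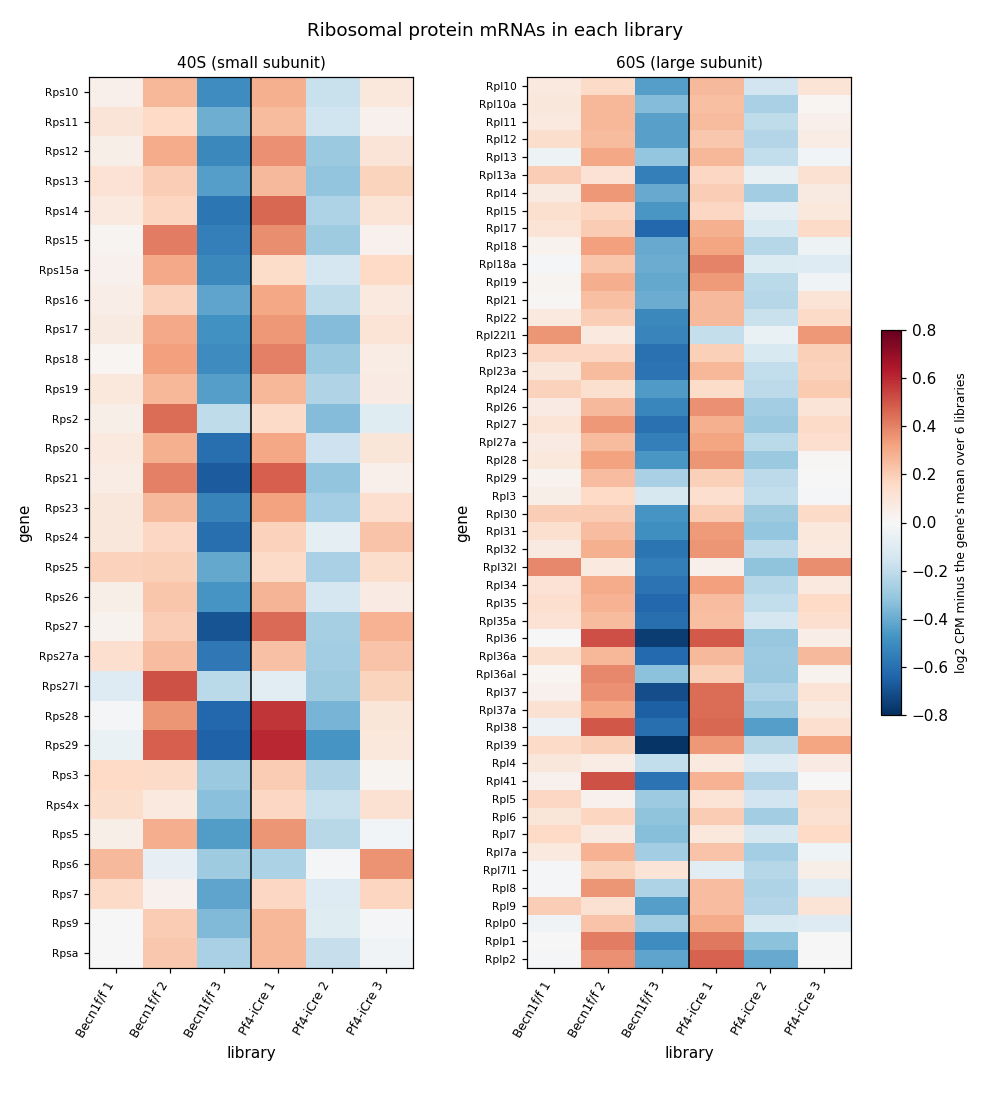
Log2 CPM of 80 of the 81 members tested minus its mean over the 6 libraries (blue lower, red higher), with 40S members on the left, 60S members on the right, and Pf4-iCre for the libraries labelled Becn1f/f;Pf4-iCre. Becn1f/f library 3 is the lowest of the 6 in 75 of those drawn, and columns differ more within a genotype than between genotypes.

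The 17 members outside this order were Rps4x, Rpl4, Rpl9, Rpl13a, Rpl7, Rps7, Rpl5, Rps24, Rpl24, Rps3, Rpl23, Rps15a and Rps6 among the core, and Rpl22l1, Rps27l, Rpl7l1 and Rpl32l among the alternative copies. A pyrimidine run of at least 7, beginning within 10 bases of the start on either side, was compared between core members with a promoter entry. It was present in 23 of the 44 in the order and in 4 of the 12 outside it, a difference that was not tested. Rps6 has a run of 10 and was outside the order, as its sequence above shows.

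Alternative copies were measured against the core member they resemble, as the log2 ratio of their CPM (1 added to each). A test of 3 libraries against 3 cannot give a p below 0.1, and 4 pairs had enough counts. Rpl22l1, which can replace Rpl22 in the ribosome and is known to be repressed by it, had a ratio to Rpl22 of -1.03, -1.41 and -1.30 in Becn1f/f libraries 1 to 3 and of -1.74, -1.17 and -1.11 in libraries 1 to 3 labelled Becn1f/f;Pf4-iCre. The groups overlapped, and the difference was -0.09 (exact two-sided permutation test, p = 0.8, adjusted over 4 pairs 0.8). Its CPM was 42.0% of that of Rpl22 in Becn1f/f and 39.9% in the other group, whereas its FPKM was 445% of that of Rpl22, whose FPKM is divided by a length of 1883 bases.

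Rps27l, a p53 target close to Rps27, had a log2 ratio to Rps27 of -1.82, -1.39 and -1.22 in Becn1f/f libraries 1 to 3 and of -2.22, -1.70 and -1.79 in libraries 1 to 3 labelled Becn1f/f;Pf4-iCre. The second group was lower on average, by 0.43, but overlapped the first (exact permutation test, p = 0.3, adjusted 0.4). Rpl36al to Rpl36a differed by -0.20 between group means of -0.06 and -0.26, and Rpl7l1 to Rpl7 by -0.26 between -2.98 and -3.24, each with p = 0.3 in the exact permutation test and 0.4 after adjustment. Rpl36al was near its partner in level, at 96.5% and 83.5% of its CPM, and Rpl7l1 was lower, at 12.7% in Becn1f/f. The muscle copy Rpl3l was at 3 to 10 counts and Rpl39l, best known from testis, at 0 to 6, too few for a ratio test. Rpl32l had 62 to 112 counts.

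Related gene lists put the members in context. None of these 3 genes outside the symbol pattern (Fau, Rps3a1 and Rack1) and none of 19 other TOP mRNAs, such as the elongation factor Eef1a1 and Tpt1, passed an unadjusted P of 0.05, with medians of 0.06 and 0.02. The other TOP mRNAs ranged over 0.28 between libraries against 0.72 for the members, again with Becn1f/f library 3 lowest, and 2 of the 19, Tpt1 and Naca, followed the shared order. Mitochondrial ribosomal proteins, which build the separate ribosome of mitochondria, had 0 of 78 called. Of the 78, 64 were negative, with 45.5% of all genes positive, and the median was -0.11. They followed the shared order in 22 of 78 (28.2%, against 5.64% of all genes) and ranged over 0.54 between libraries. Their lowest library was library 2 labelled Becn1f/f;Pf4-iCre (-0.26), and the groups overlapped in mean deviation.

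Ribosome biogenesis factors had 60 of 71 negative values and a median of -0.12, with 45.5% of all genes positive. Their mean log2 deviation was 0.074, 0.095 and 0.017 in Becn1f/f libraries 1 to 3. In libraries 1 to 3 labelled Becn1f/f;Pf4-iCre it was -0.027, -0.179 and 0.019, so the groups overlapped. Utp4, Rrs1, Noc4l and Heatr3 were lower at an unadjusted P under 0.05, with 2.39% of all genes lower at that level, and had log2 fold changes of -0.29, -0.27, -0.36 and -0.28. Their adjusted p in edgeR's test was 0.76 to 0.78. Of 37 initiation factors 1 was lower, the poly(A)-binding protein Pabpc4 (-0.36, adjusted p = 0.57), with a list median of -0.08. None was called among 12 RNA polymerase I genes (median -0.08), 12 elongation and termination factors (-0.06) or 22 ribosome rescue and ribophagy genes (-0.04).

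Of 27 genes of mTORC1 and LARP1, 1 was higher at an unadjusted P under 0.05, with 3.92% of all genes higher at that level. It was Deptor, an inhibitor of mTOR, at 30.9, 28.4 and 29.7 CPM in Becn1f/f libraries 1 to 3 and 41.7, 48.2 and 43.0 CPM in libraries 1 to 3 labelled Becn1f/f;Pf4-iCre. The groups did not overlap (log2 fold change 0.58, SE 0.13, edgeR adjusted p = 0.21), and the list median was -0.05. Of 15 genes of nucleolar stress and p53, Pmaip1, which encodes the p53 target Noxa, was at 170, 150 and 113 CPM in Becn1f/f libraries 1 to 3 and 200, 270 and 279 CPM in libraries 1 to 3 labelled Becn1f/f;Pf4-iCre. The groups did not overlap. Pmaip1 was higher by a log2 fold change of 0.79 (SE 0.18, edgeR adjusted p = 0.21). It was the 1 gene of these lists past the study's thresholds, which 2.30% of all genes passed. Deptor and the biogenesis and initiation factors named were picked after their values were seen.

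Marker lists of other cell types, and of MKs, were examined in the same libraries. Tested markers higher in the libraries labelled Becn1f/f;Pf4-iCre, in the sign of the fold change, were 5 of 15 for MKs and platelets, 0 of 13 for erythroid cells, 1 of 16 for neutrophils, 11 of 12 for macrophages, 1 of 12 for B cells and 3 of 18 for cycling cells. Over all genes tested 45.5% were higher, and markers of 1 cell type are not independent of each other. Summed erythroid markers were 493 to 804 CPM in Becn1f/f and 386 to 508 CPM in the other group, macrophage markers 796 to 838 and 857 to 1052, B cell markers 192 to 322 and 192 to 251, and cycling markers 5240 to 5773 and 5085 to 5660. Becn1f/f library 3 was the lowest of its genotype in 2 of the 6 lists by summed CPM (erythroid and macrophage) and in 0 by mean log2 deviation. Library 2 labelled Becn1f/f;Pf4-iCre was the lowest of its genotype in 1 list by summed CPM and in 2 by mean log2 deviation. The part of cell composition in the members' swing was not tested.

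**Figure D5:**
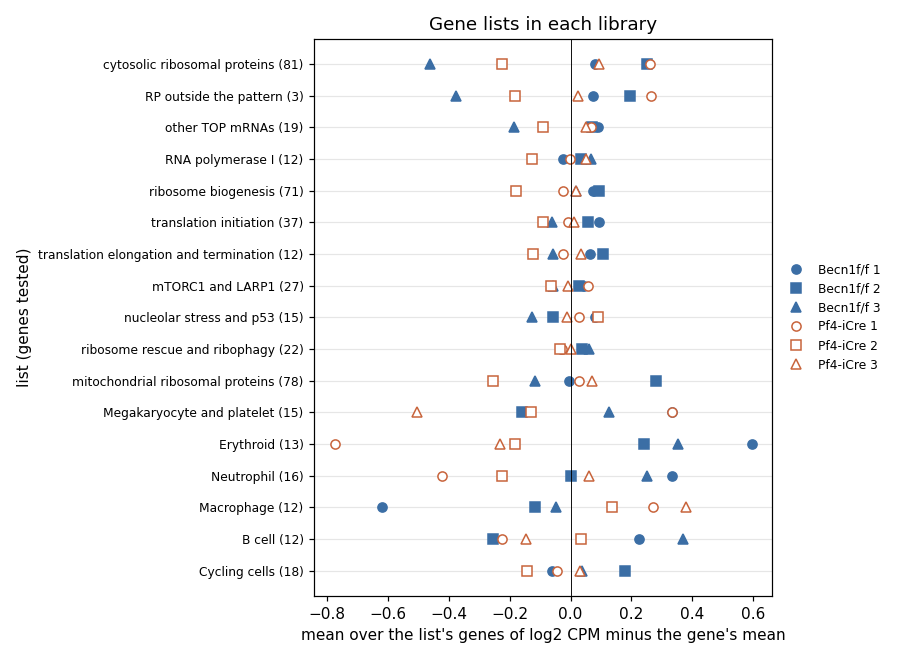
Mean over each list's tested genes of log2 CPM minus the gene's own mean, in each library (filled blue for Becn1f/f, open orange for the libraries labelled Becn1f/f;Pf4-iCre), with the number of genes tested in brackets. The cytosolic ribosomal proteins range over 0.72 with Becn1f/f library 3 lowest. Erythroid markers range over 1.37 and macrophage markers over 1.00, and both lists separate the genotypes in this measure.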

How the data were processed

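RNA of bone marrow cells sorted and labelled as MKs was measured in 6 libraries, with genotype and replicate number from the labels. The authors deposited an estimated count per gene, which is not normalized and not whole for 10.3% to 11.3% of genes in a library, and an FPKM value that the authors scaled for length and depth. The submitters' processing notes name HISAT, Bowtie2 and GRCm39 (mm39), and the counting tool is not given in the sources used here. A further 16 per-sample columns, 4 of them of 1 library that matched no mapped sample, and 8 columns of group means were not used.

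Estimated counts were rounded, filtered with filterByExpr, normalized by TMM and compared in edgeR 4.0.16 (quasi-likelihood, genotype only, Benjamini-Hochberg over 12256 genes) in R 4.3.3. DESeq2 1.42.0 and limma 3.58.1 were alternatives, beside other scalings and filters on low counts, the replicate block, a GC and length correction, log2 FPKM with a pseudocount of 1 or 0.1, pseudogene rows added, and each library left out, and the edgeR step was tested on simulated data. No pair of replicates agreed within sampling noise (chi-square of 12.4 to 39.9 for each degree of freedom). Depth sets counting error only. Length and GC content came from GENCODE M21 transcripts of GRCm38, matched by symbol for 11953 tested genes and all 81 members tested, and the deposited table gave no positions to this work.

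Members and lists were chosen with earlier results of these data known. Members named singly were the 5 highest and 5 lowest by FPKM, the 5 most positive and 5 most negative fold changes, members with an unadjusted P under 0.05, both genes of each pair of copies, and members with set roles. Beside them stood Becn1, genes outside the pattern, and list genes past the thresholds. A gene of the pattern, counted in the sums but not drawn, and a gene outside it are not reported here.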

Additional observations from a re-analysis of the deposited data

How the results depend on the processing

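In none of the 20 alternatives did a member pass the study's thresholds or an adjusted p under 0.05. With the GC and length trend removed, 1 member (Rps27) had an unadjusted P under 0.05, where 8.12% of all genes did, and with the trend removed together with the replicate block 2 did (Rps27 and Rps14), where 10.1% of all genes did. In the other alternatives the count stayed at 0. Members with a negative fold change numbered 12, and 5 with the GC and length trend removed, with or without the replicate block. The numbers changed most when a library was left out, from 2 to 79. The median log2 fold change went from -0.10 to 0.24 when each library was left out, and moved by less than the spread between libraries (0.32) in every alternative. Of the 32 named members tested, 28 changed sign in at least 1 alternative, none of them past a threshold. The difference in summed share between the genotypes was 0.092 percentage points by counts and 1.02 by FPKM. The shared library order, examined under alternatives chosen after seeing the data, held in 64 members, in 38 with the GC and length trend removed, and in 51 to 65 with the other scalings and FPKM. The ratios of copies moved by less than their spread in the alternatives run.

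Replicate numbers are shared between the groups, but nothing says that a number marks a shared animal or day. Deviations of same-numbered libraries correlated at 0.07, -0.27 and 0.19, and not every library correlated best with its own number. In the paired fit with the replicate block, 0 members had an unadjusted P under 0.05, 11 were negative and the median was 0.09. With 3 libraries a group, the 95% confidence interval reached past a 1.5-fold change in 18 of the 81 members, and 75 of the 81 had at least 1000 counts in every library.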
